A study of Homo sapiens with 2 samples.

Results

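The kinetochore and spindle checkpoint genes were 42 human genes chosen by name, 41 of which were measured among the 18417 genes of the array. A gene was measured when a transcript cluster (the probes that the array treats as a single transcript) carried its name and no other, under an old or current alias, and the brightest such cluster stood for it. CENPJ was found under its current name CPAP, and CENPA, whose cluster is shared with another gene, was not measured. The list was chosen with earlier results of these data known, among them that mitosis genes were higher in the knockdown. ACHN is an established human renal carcinoma line, described as clear cell in the labels. Cells were transfected with an shRNA against Kindlin-2, the integrin adaptor encoded by FERMT2, or with a control shRNA. The cells of each group grew in minimum essential medium with 10% serum and 400 µg/ml of G418, a drug that selects transfected cells. The comparison addressed which transcripts respond to depletion of Kindlin-2. There was 1 array per group, hybridised with cDNA from 6 µg of total RNA, so no test, error or interval can be given and every difference describes these 2 arrays. The labels name neither the shRNA sequence nor the number of clones in a culture.

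The kinetochore is the protein machine that assembles on the centromere of each chromosome and holds the microtubules of the mitotic spindle. An inner layer, the constitutive centromere-associated network, sits on nucleosomes that contain the histone variant CENP-A, and an outer layer built on the MIS12 and NDC80 complexes binds the microtubules. The spindle checkpoint senses kinetochores without microtubules and delays anaphase by inhibiting the anaphase-promoting complex. Transcripts of many of these genes are known to accumulate in G2 and mitosis. In bulk RNA, more cells in those phases and more RNA per cell cannot be told apart.

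FERMT2 had a log2 value of 8.26 with Kindlin-2 shRNA and 9.37 with control shRNA, a 2.16-fold lower level in the direction of the label. The arrays had median log2 values of 6.53 and 6.51. Of 9 measured markers of renal epithelium and renal carcinoma, 7 lay above 6.52, the median of the whole table, on both arrays, among them PAX8, MET, KRT8 and VIM. The differences of these 9 lay between -0.83 for CDH16 and 0.91 for CDH6. Most were lower in the knockdown: PAX8 (-0.13), MET (-0.25), KRT18 (-0.44), LHX1 (-0.45), KRT8 (-0.54), PAX2 (-0.66) and CDH16. Only CDH6 and VIM (0.20) were higher. CA9, an antigen of clear cell carcinoma, was not among the genes named here. None of 4 leukocyte and 4 endothelial markers lay above that median on both arrays, and 2 of 5 fibroblast and smooth muscle markers did, COL1A1 and ACTA2. The differences of these 13 markers lay between -0.77 and 0.18, and the part of any of these markers in the results was not tested.

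Promoters were examined because most of the genes differed in the same direction. The cell cycle genes homology region (CHR) is the site through which the DREAM and MMB complexes bind many mitotic genes, and the CCAAT box is the site of the factor NF-Y. RefSeq promoters (GRCh38.p14, 250 bases before to 50 after the start site) were found for 35 of the 42 genes. They were searched on both strands for TTTGAA (CHR) and CCAAT. The following stretches run from base -120 to base -1 before the start site, with matches to either motif in capitals. They were chosen after the values were seen. BUB1B, ZWINT, CDCA8 and INCENP are shown for a CHR just before the start site. BUB1 is shown for CCAAT boxes without a match to TTTGAA, NUF2 as the gene with the largest difference, and MAD1L1 as a gene near 0.
BUB1B: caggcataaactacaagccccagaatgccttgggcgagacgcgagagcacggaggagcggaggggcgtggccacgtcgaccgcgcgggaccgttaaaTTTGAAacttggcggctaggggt
ZWINT: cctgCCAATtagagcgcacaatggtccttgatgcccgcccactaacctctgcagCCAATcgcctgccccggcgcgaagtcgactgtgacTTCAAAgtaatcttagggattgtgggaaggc
CDCA8: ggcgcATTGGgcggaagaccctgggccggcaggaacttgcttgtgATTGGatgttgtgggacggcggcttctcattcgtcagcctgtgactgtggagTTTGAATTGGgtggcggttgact
INCENP: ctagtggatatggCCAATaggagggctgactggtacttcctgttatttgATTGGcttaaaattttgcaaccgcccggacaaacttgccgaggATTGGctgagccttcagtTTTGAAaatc
BUB1: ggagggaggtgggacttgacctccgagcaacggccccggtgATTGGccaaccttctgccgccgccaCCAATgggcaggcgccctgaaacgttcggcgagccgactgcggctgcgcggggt
NUF2: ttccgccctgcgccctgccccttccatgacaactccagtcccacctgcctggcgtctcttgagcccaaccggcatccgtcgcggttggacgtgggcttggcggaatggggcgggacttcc
MAD1L1: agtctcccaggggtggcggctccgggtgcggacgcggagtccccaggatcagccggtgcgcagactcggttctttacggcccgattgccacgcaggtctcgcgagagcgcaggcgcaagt
The BUB1B stretch is chr15:40160949-40161068 on the plus strand. ZWINT is chr10:56361260-56361379 on the minus strand, and its CHR reads on the opposite strand as TTCAAA. CDCA8 is chr1:37692396-37692515 and INCENP chr11:62123891-62124010, both on the plus strand. In CDCA8 the CHR and the CCAAT box nearest the start site overlap. BUB1 is chr2:110678064-110678183 and MAD1L1 chr7:2232946-2233065, both on the minus strand, and NUF2 is chr1:163321834-163321953 on the plus strand. In NUF2 the CHR lay after the start site, at base 17, and is not printed.

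A CHR was present in the promoters of 17 of the 35 genes (48.6%). The same letters were found in 18.2% of all 27305 genes of the promoter table, and in 12.9% of the 9247 genes in it whose mean array value passed the median of the table. In 15 of the 35 genes (42.9%) the match began within 50 bases of the start site, against 4.03% of those 9247 genes. This window was set after the positions were seen. A CCAAT box was present in 20 of the 35 genes (57.1%), against 39.7% of all genes of the table and 42.3% of the brighter ones. Both motifs were present in 10 of the 35 genes and neither in 8. An E2F site of the form TTTCCCGC, TTTCGCGC or TTTGGCGC was found in 3 of the 35 genes (8.57%), against 3.30% of all genes and 5.57% of the brighter ones. A match is a run of letters and not a shown binding site. A promoter without a match lacks only these letters in the window searched, since other forms of the sites were not searched for.

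**Figure D1:**
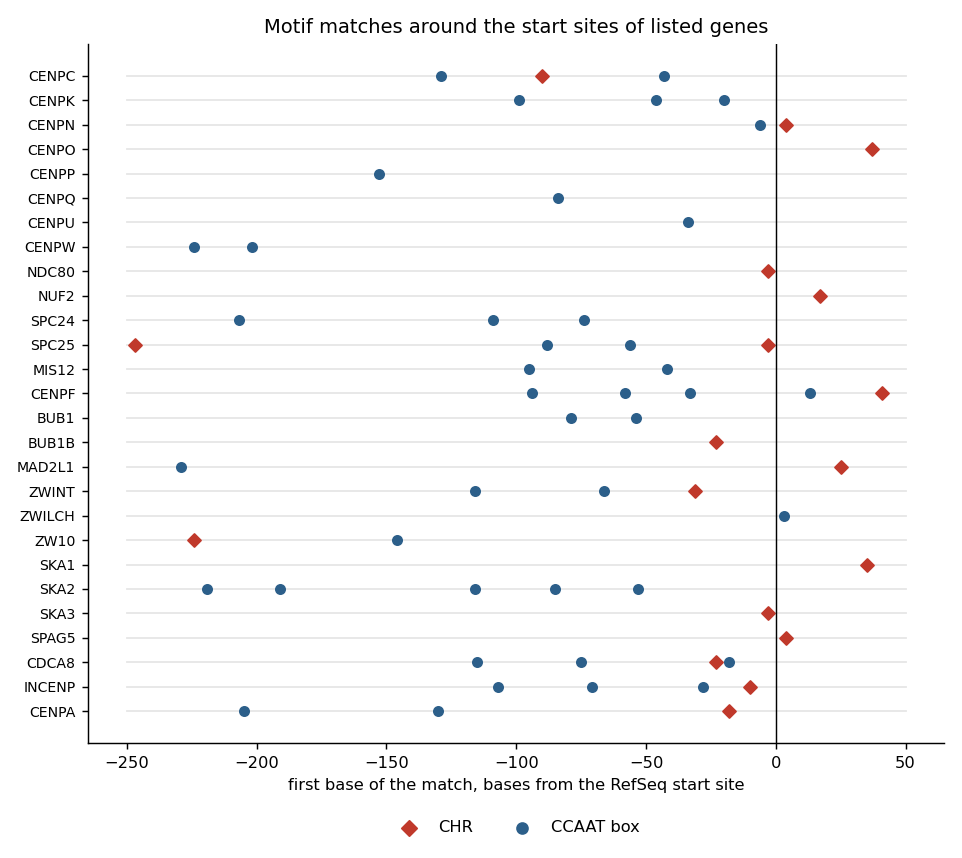
Positions of CHR (diamonds) and CCAAT box (circles) matches in bases from the RefSeq start site, for the listed genes with at least 1 match and for 1 promoter entry per gene. The CHR diamonds gather around the start site, whereas CCAAT circles lie mostly before it.

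The kinetochore and checkpoint genes were higher in the Kindlin-2 shRNA array nearly throughout. Of the 41 measured genes 39 were above 0 on the log2 difference scale, where 46.7% of all genes were. At least 1.5-fold higher levels were found for 21 of the 41, against a background of 3.77% of all genes, and 0 of 41 were at least 1.5-fold lower, against 3.81%. At 2-fold the count was 6 higher, against 1.01% of all genes, and 0 lower, against 0.896%. The median log2 difference of the 41 genes was 0.59, and that of all genes was -0.01. Differences ranged from -0.10 for CENPT to 1.36 for NUF2, and 16 of the 41 exceeded 0.70, the 97.5 percentile of all genes.

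The direction was the same among the brighter genes. Of the 41 genes 34 had a mean of both arrays at or above the table median. This mean includes the knockdown value, so a gene can pass through that array. CENPC and CENPU did so, with control values of 6.51 and 6.33 under the median of 6.52, so the subset is not independent of the differences. Among these 34, 18 were at least 1.5-fold and 6 at least 2-fold higher, where 4.86% and 1.29% of the 11470 genes that met the same condition were. None was at least 1.5-fold lower (4.93% of the 11470) or 2-fold lower (1.09%). The other 7 were CENPH, CENPL, CENPP, CENPQ, CENPW, SPC25 and SKA1, of which 3 were at least 1.5-fold higher. The background correction of the authors' method compresses differences between dim values, so the folds of these 7 are the least certain in size.

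**Figure D2:**
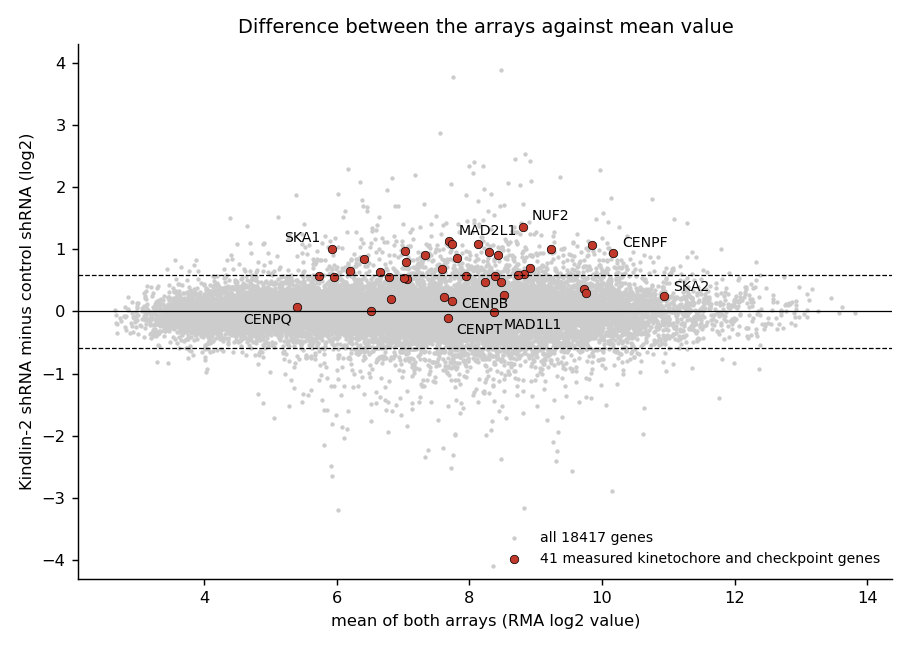
Log2 difference between the arrays (Kindlin-2 shRNA minus control shRNA) against the mean log2 value of both arrays, with all 18417 genes in grey and the 41 measured kinetochore and checkpoint genes in red. Dashed lines mark 1.5-fold; 39 of the 41 red points lie above 0 and none lies under the lower line.

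The proteins that meet the microtubule held the largest single difference. NUF2, a subunit of the NDC80 complex that is the main microtubule coupler of the kinetochore, had a log2 value of 9.48 with Kindlin-2 shRNA and 8.12 with control shRNA. It was 2.56-fold higher, and 69 of the 18417 genes had a larger positive difference. SPC24, at the inner end of the same complex, had values of 7.93 and 7.25, a difference of 0.68. SPC25, its partner there, had values of 6.24 and 5.69 and differed by 0.55. NDC80, the partner of NUF2 at the microtubule, had values of 7.33 and 6.80 and differed by 0.53, the least of the 4. All subunits of this complex were thus higher, by amounts from 0.53 to 1.36, with NUF2 the highest.

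The MIS12 complex joins the NDC80 complex to the centromere. Its subunit DSN1 had a log2 value of 7.51 with Kindlin-2 shRNA and 6.54 with control shRNA, a 1.96-fold higher level. MIS12 itself differed by 0.54, and NSL1, with values of 9.91 and 9.56, by 0.35, or by 0.14 with the median of its neighbours, the 50 nearest measured genes of the chromosome, subtracted. DSN1 lies on chromosome 20, where genes were higher as a whole, and its difference of 0.97 became 0.71 when the neighbour median was subtracted.

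Both large proteins of the outer corona of the kinetochore were among the higher genes. CENPE, a kinesin that carries chromosomes towards the spindle equator, had log2 values of 8.67 with Kindlin-2 shRNA and 7.58 with control shRNA, a 2.12-fold higher level. CENPF, which links dynein regulators and microtubules to the kinetochore, had values of 10.64 and 9.70, a 1.92-fold higher level. Its difference of 0.94 became 0.72 with the neighbour median subtracted.

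The SKA complex stabilises the grip of the NDC80 complex on microtubules, and astrin (SPAG5) acts at kinetochores that are correctly attached. SKA1, the microtubule-binding subunit, had log2 values of 6.42 with Kindlin-2 shRNA and 5.42 with control shRNA, a difference of 1.00. Both of these values lay under the table median. SPAG5 had values of 9.27 and 8.56 and was 1.63-fold higher, and SKA3 differed by 0.56. SKA2, which completes the complex, had values of 11.06 and 10.82 and differed by 0.24. The brightest SKA2 cluster is uncertain in identity, since all 10 nearest named clusters in the order of the IDs belong to genes of chromosome 9, whereas SKA2 lies on chromosome 17. The other SKA2 cluster, among IDs of chromosome 17 genes, had values of 9.94 and 9.60 and differed by 0.34.

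**Figure D3:**
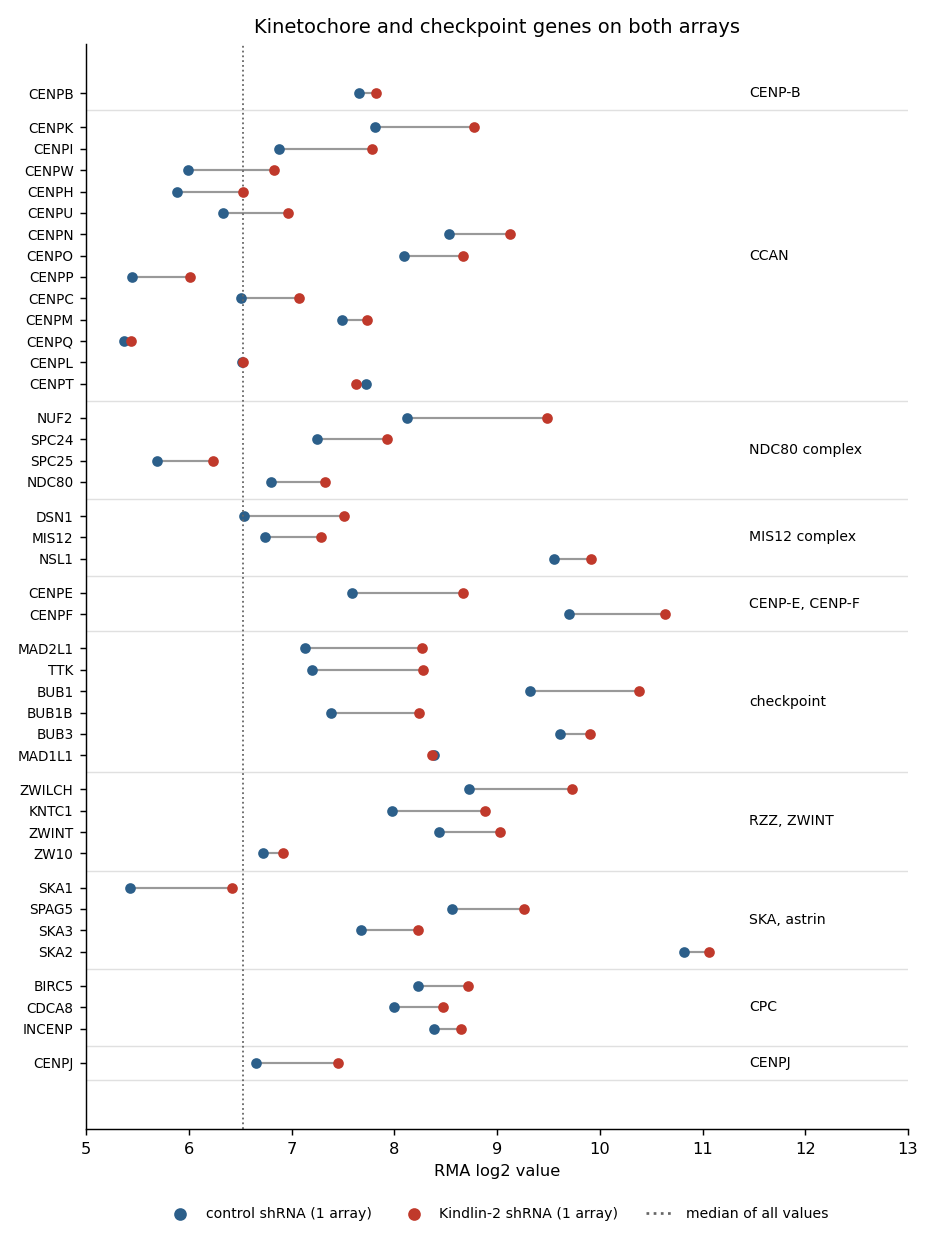
RMA log2 values of each measured kinetochore and checkpoint gene in the control shRNA array (blue) and the Kindlin-2 shRNA array (red), 1 array each, grouped by complex (CCAN, constitutive centromere-associated network; CPC, chromosomal passenger complex). The red point lies to the right of the blue one for 39 of 41 genes, and CENPT and MAD1L1 are the exceptions.

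The spindle checkpoint kinases and MAD2 were higher together, whereas the partners of BUB1 and MAD2 that complete their complexes differed less. MAD2L1, the protein that is converted at unattached kinetochores into the inhibitor of CDC20, had log2 values of 8.27 with Kindlin-2 shRNA and 7.13 with control shRNA, a 2.20-fold higher level. TTK, the kinase that starts checkpoint signalling and is also called MPS1, had values of 8.28 and 7.19, a 2.13-fold higher level. BUB1, a kinase that also marks the inner centromere for the protector shugoshin, had values of 10.39 and 9.32 and was 2.09-fold higher. These 3, with NUF2, CENPE and ZWILCH, were the 6 genes past 2-fold. With neighbour medians subtracted TTK, at 0.94, no longer passed 2-fold, and KNTC1, at 1.16, did.

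BUB1B, which encodes the CDC20 inhibitor BUBR1, had values of 8.24 and 7.38 and was 1.81-fold higher. BUB3, the adaptor that brings BUB1 and BUBR1 to the kinetochore, had values of 9.91 and 9.61 and differed by 0.30. MAD1L1, the receptor of MAD2 at the kinetochore, had values of 8.36 and 8.38 and differed by -0.02. The genes of its chromosome, 7, had a median of -0.22, and MAD1L1 differed by 0.20 with the neighbour median subtracted. The median of the 6 checkpoint genes was 0.96 and their mean 0.74.

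The RZZ complex recruits dynein and MAD1 to unattached kinetochores, and ZWINT tethers it. ZWILCH, an RZZ subunit, had log2 values of 9.73 with Kindlin-2 shRNA and 8.73 with control shRNA, a difference of 1.00 that just passed 2-fold. KNTC1, which encodes the large subunit ROD, had values of 8.88 and 7.98 and was 1.87-fold higher. Its chromosome, 12, had a median difference of -0.21, and its own difference of 0.91 was 1.16 with the neighbour median subtracted. ZWINT had values of 9.03 and 8.44 and was 1.51-fold higher, which fell under 1.5-fold, at a difference of 0.52, with the neighbour median subtracted. ZW10, the RZZ subunit that also works in membrane traffic between divisions, had values of 6.92 and 6.72 and differed by 0.20. The 3 subunits of RZZ therefore differed unequally, from 0.20 to 1.00.

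Of the 13 listed genes of the constitutive centromere-associated network, 12 were above 0 (46.7% of all genes) and 6 passed 1.5-fold higher (3.77%). At 2-fold the count was 0, near the 1.01% of all genes, and the median of these 13 was 0.58. The network has further subunits outside the list. With neighbour medians subtracted, 3 of its 12 autosomal genes passed 1.5-fold, CENPK, CENPW and CENPP, while CENPH, CENPN and CENPU fell short at 0.49, 0.58 and 0.48. CENPK, of the CENP-H-I-K-M group, had log2 values of 8.77 with Kindlin-2 shRNA and 7.81 with control shRNA and was 1.95-fold higher. CENPI had values of 7.78 and 6.88 and was 1.87-fold higher. CENPH had values of 6.53 and 5.88, a difference of 0.65, and CENPM, the remaining subunit of that group, differed by 0.24.

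CENPW, a histone-fold protein, had values of 6.83 with Kindlin-2 shRNA and 5.99 with control shRNA, a difference of 0.85. Its histone-fold partner CENPT, which also recruits the NDC80 complex, had values of 7.62 and 7.73 and differed by -0.10, the lowest value of all 41 genes, or by -0.01 with the neighbour median subtracted. The partners thus lay near opposite ends of the network. CENPU, which docks the kinase PLK1, had values of 6.96 and 6.33, a difference of 0.63. CENPN, which reads the CENP-A nucleosome, had values of 9.13 and 8.53 and differed by 0.60. CENPL, its partner, had values of 6.53 and 6.52 and differed by 0.01.

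The other listed subunits of the network were CENPO (0.58), CENPP (0.56), CENPC (0.56) and CENPQ (0.07). CENPC is the scaffold that links the CENP-A nucleosome to the MIS12 complex. CENPO, CENPP and CENPQ belong with CENPU to a single group, in which CENPP and CENPQ were dim. With the neighbour median subtracted CENPQ differed by 0.24 and CENPC by 0.40. CENPP is on chromosome 9 (median difference -0.31), and its difference was 0.82 with the neighbour median subtracted. CENPB, which binds a motif of the centromeric satellite DNA, had values of 7.82 and 7.66, a difference of 0.17. CENPB lies on chromosome 20, and its difference was -0.09 with the neighbour median subtracted.

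The chromosomal passenger complex carries the kinase Aurora B to the inner centromere, where it releases wrong attachments. Its 3 listed subunits were higher by less than 1.5-fold. BIRC5 (survivin) had log2 values of 8.71 with Kindlin-2 shRNA and 8.23 with control shRNA, a difference of 0.48. A dimmer BIRC5 cluster differed by 0.23. CDCA8 (borealin), which with survivin targets the complex to the centromere, differed by 0.47. INCENP, the scaffold of the complex, had values of 8.65 and 8.39 and differed by 0.27.

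CENPJ is a centriole protein despite its name, needed for the growth of the centriole wall. It had log2 values of 7.45 with Kindlin-2 shRNA and 6.65 with control shRNA and was 1.73-fold higher.

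Across complexes the medians of the listed genes were highest for CENP-E and CENP-F (1.01), the checkpoint (0.96) and RZZ with ZWINT (0.75). SKA with astrin (0.63), the NDC80 complex (0.61), the constitutive network (0.58), the MIS12 complex (0.54) and the passenger complex (0.47) followed. The listed passenger genes, from 0.27 to 0.48, lay wholly under CENP-E with CENP-F, from 0.94 to 1.09. They also lay under the NDC80 complex, from 0.53 to 1.36, but AURKB, the passenger kinase of another list, differed by 0.55, within that range. With neighbour medians subtracted, BIRC5 at 0.47 and CDCA8 at 0.48 exceeded NDC80 at 0.43. Without replicates the order of the medians of the complexes cannot be tested. Another 7 genes lay between 1.4-fold and 1.5-fold higher, so the count at 1.5-fold depends on where the line is drawn.

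The higher values were spread over the genome. The 41 genes lie on 19 chromosomes, 40 of them on 18 autosomes. On the 13 autosomes with at least 2 of them, the median of the listed genes lay between 0.23 and 0.93. Chromosomes 7, 9, 12 and 20 had shifted medians of -0.22, -0.31, -0.21 and 0.26, and 5 of the listed genes lie there. These chromosomes were picked by their medians, and the other 18 autosomes had medians within 0.1 of 0. The other 36 genes had a median of 0.60, and 19 of them were at least 1.5-fold higher. Local shifts occurred among these 36 too. The neighbour median was 0.22 for CENPF and 0.21 for NSL1 on chromosome 1, and -0.17 for CENPQ on chromosome 6. With the neighbour median subtracted, the median of the 40 autosomal genes was 0.55, and 17 were at least 1.5-fold higher. Of the 40, 3 changed sign, CENPB, CENPL and MAD1L1.

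**Figure D4:**
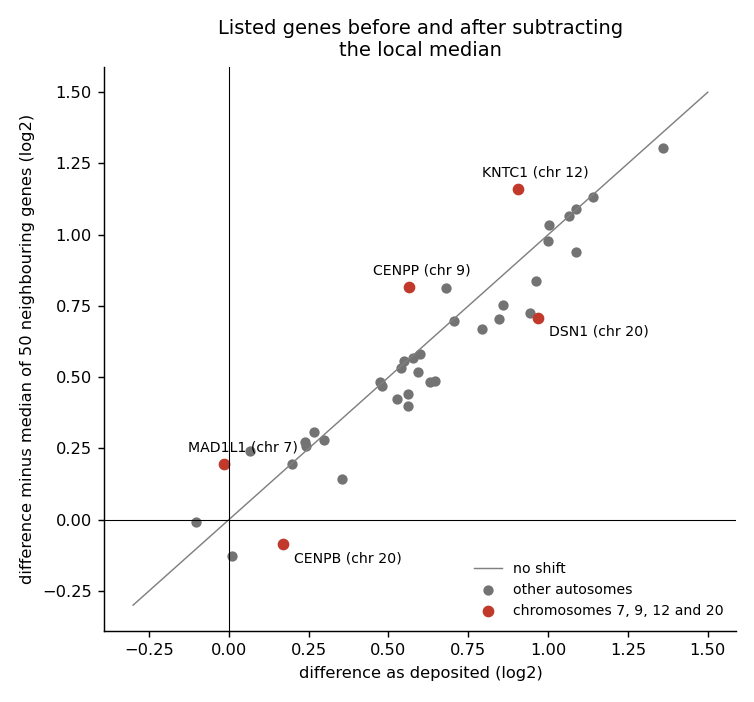
Log2 difference of the 40 autosomal kinetochore and checkpoint genes as deposited (horizontal) and after subtraction of the median of the 50 nearest measured genes (vertical), with genes of chromosomes 7, 9, 12 and 20 in red. KNTC1, CENPP and MAD1L1 move up and DSN1 and CENPB move down, while NUF2 stays highest at 1.30.

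Within the list, genes with the letters TTTGAA in the promoter had a slightly lower median than genes without these letters. The 16 measured genes with a CHR had a median log2 difference of 0.58, from 0.20 to 1.36, and 8 of them were at least 1.5-fold higher. The 18 without these letters had a median of 0.66, from -0.10 to 1.09, and 10 were at least 1.5-fold higher. Other forms of the site were not searched for, so these 18 may hold them. The 2 ranges overlapped over most of their length. For the CCAAT box the medians were 0.59 in 19 genes with it and 0.71 in 15 without.

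Other genes of the same machinery were taken from lists that were also written with earlier results known. Of 15 measured other kinetochore and inner centromere genes, 12 were above 0 (46.7% of all genes) and 4 passed 1.5-fold higher (3.77%). Their median was 0.33, and 0 passed 1.5-fold lower (3.81% of all genes). KNL1, the scaffold that completes the outer kinetochore network and docks BUB1 and BUBR1, differed by 1.07. SPDL1, a dynein adaptor that RZZ recruits, differed by 1.00, and the shugoshins SGO1 and SGO2, protectors of centromeric cohesion, by 0.76 and 0.72. SGO2 differed by 0.53, under 1.5-fold, with the neighbour median subtracted. AURKB, the kinase of the passenger complex, differed by 0.55. ITGB3BP encodes CENP-R, a further subunit of the constitutive network first described as a binder of integrin beta-3, and it differed by 0.29.

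Of 7 genes of CENP-A deposition, 6 were above 0 (46.7% of all genes) and 2 were at least 1.5-fold higher (3.77%), with a median of 0.15. HJURP, the chaperone that deposits CENP-A, differed by 0.94, and MIS18A, which licenses the centromere for it, by 0.66. The 2 general histone chaperones of the list, RBBP4 and RBBP7, differed by -0.05 and 0.06. With neighbour medians subtracted, the 6 autosomal genes of this list had a median of 0.25 and MIS18A, at 0.56, no longer passed 1.5-fold.

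Of 22 genes of the anaphase-promoting complex and its outputs, 12 were above 0 (46.7% of all genes) and 4 passed 1.5-fold higher (3.77%). Their median was 0.07, and 1 passed 1.5-fold lower (3.81% of all genes). TRIP13, the ATPase that disassembles the MAD2 complex, differed by 1.08, securin (PTTG1) by 1.03, the ubiquitin-conjugating enzyme UBE2C by 0.96 and CDC20, which the checkpoint inhibits, by 0.71. UBE2C lies on chromosome 20 and differed by 0.60 with the neighbour median subtracted. ESPL1 rose from 0.49 to 0.74 with the same subtraction, after which 5 of the 22 passed 1.5-fold higher. None of the 14 core subunits was at least 1.5-fold higher, 6 (42.9%) were above 0, and their median was -0.07. These shares are near those of all genes, 3.77% and 46.7%. This split of the list was made after the values were seen. The core subunit CDC26 had log2 values of 7.71 with Kindlin-2 shRNA and 8.50 with control shRNA and was 1.73-fold lower. It lies on chromosome 9 and differed by -0.49 with the neighbour median subtracted.

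Of 18 spindle assembly genes 16 were above 0 and 6 were at least 1.5-fold higher, where 46.7% and 3.77% of all genes were. The other 12 lay within 1.5-fold, and the median was 0.42. Aurora A (AURKA) differed by 1.27, its activator TPX2 by 1.17 and the spindle protein HMMR by 1.06, and AURKA and TPX2 lie on chromosome 20. With neighbour medians subtracted, AURKA and HMMR each differed by 1.04 and TPX2 by 0.91. All 10 centriole duplication genes were above 0, of which 4 were at least 1.5-fold higher and 6 lay within 1.5-fold, with a median of 0.37. CEP135 differed by 1.12, the duplication kinase PLK4 by 1.09 and the cartwheel protein SASS6 by 0.96. With neighbour medians subtracted 3 passed 1.5-fold higher, since CEP152 fell from 0.62 to 0.55.

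Of 13 markers of proliferation and replication 11 lay above 0 (46.7% of all genes) and 4 passed 1.5-fold higher (3.77%). The other 9 stayed within 1.5-fold, and the median was 0.33. The sliding clamp PCNA differed by 1.12, the licensing factor CDC6 by 0.91 and topoisomerase TOP2A by 0.84. PCNA lies on chromosome 20 and differed by 0.87 with the neighbour median subtracted, less than CDC6 at 0.92. MCM7 rose from 0.33 to 0.61 with the same subtraction, after which 5 of the 13 passed 1.5-fold higher. MKI67, the gene of the Ki-67 antigen, differed by 0.83. The part of a different share of dividing cells in the kinetochore values was not tested. The median of genes used as references in expression assays was 0.04. At least 1.5-fold higher or lower were 0 of 14, against 3.77% and 3.81% of all genes.

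The DREAM and MMB complexes, E2F and NF-Y regulate many of these genes. Of the 22 genes of these regulators 13 (59.1%) were above 0, where 46.7% of all genes were. Among the 22, 4 passed 1.5-fold higher (3.77% of all genes) and 1 passed it lower (3.81%), with a median of 0.05. E2F7, a repressor of E2F targets, had log2 values of 10.44 with Kindlin-2 shRNA and 8.28 with control shRNA and was 4.47-fold higher. The pocket protein RBL1 differed by 1.11 and MYBL2, the MYB subunit of MMB, by 0.97, and both lie on chromosome 20 (0.84 and 0.61 with neighbour medians subtracted). LIN9, a core subunit of both complexes, differed by 0.71. E2F8, the closest relative of E2F7, had values of 7.30 and 7.92 and was 1.54-fold lower. FOXM1, which joins MMB at mitotic promoters, differed by -0.15, or by 0.15 with the neighbour median subtracted. The NF-Y subunits NFYA, NFYB and NFYC differed by -0.28, -0.37 and 0.08, or by -0.09, -0.16 and 0.06 with neighbour medians subtracted.

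**Figure D5:**
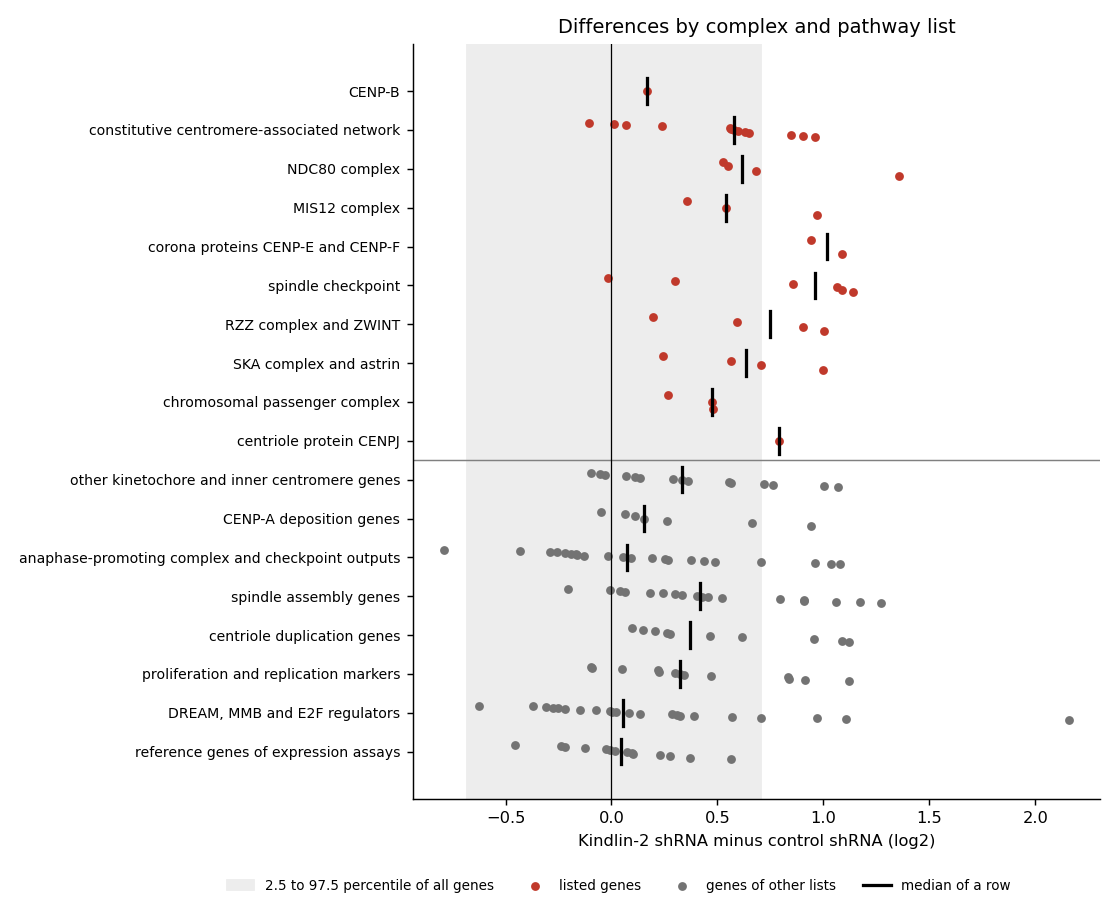
Log2 difference of each gene (Kindlin-2 shRNA minus control shRNA) by complex for the listed kinetochore and checkpoint genes (red) and by list for other genes (grey), with the median of each row as a bar and the 2.5 to 97.5 percentile range of all genes (-0.68 to 0.70) shaded. All red rows have medians above 0, and the rows of the anaphase-promoting complex, the regulators and the reference genes are centred near 0.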

How the data were processed

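Gene expression was measured on 2 Affymetrix Human Gene 1.0 ST arrays. Per the submitters' processing notes the arrays were processed with RMA in Affymetrix Expression Console 1.4.1, which corrects background, normalises between arrays and summarises probes. The deposited log2 values, from 2.13 to 14.04, cover 33297 transcript clusters (build not given in the sources used here). The log2 scale was judged from that range.

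Symbols came from GEO's platform annotation, updated by Entrez ID to RefSeq (GRCh38.p14) for 19429 of 19460 clusters with 1 symbol. Another 1754 clusters carried several symbols and 12083 none, and these were left out. The brightest cluster stood for each of the 769 genes with several. Differences are Kindlin-2 shRNA minus control shRNA. No filter on dim genes was applied, because a filter on the higher value admits dim genes that differ. Calculations used Python 3.11.15 with pandas 2.3.3 and statsmodels 0.14.6, and the counting and scaling steps were tested on simulated data.

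The members and all lists were chosen with earlier results of these data known. The named genes were all measured members, FERMT2 and up to 3 genes per direction of each other list past 1.5-fold. Genes named beyond that (SGO2, AURKB, ITGB3BP, RBBP4, RBBP7, CDC20, ESPL1, CEP152, MKI67, MCM7, LIN9, FOXM1 and the NF-Y subunits) were chosen after their values were seen. The number of arrays limits the precision of every value. The alternatives were other filters, folds, scalings between arrays, cluster summaries, the mean in place of the median, and subtraction of autosome or neighbour medians, taken over genes whose mean of both arrays reached the table median. Leaving out SKA2 was added after the data were seen.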

Additional observations from a re-analysis of the deposited data

How the results depend on the processing

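With no replicate, a median was said to move when an alternative changed it by over 0.1 (log2), and a count when it changed by over 1.5 times. The median of the listed genes stayed between 0.55 and 0.62 under all alternatives run, leaving out SKA2 (added after the data were seen) included. Their count past 1.5-fold higher lay between 17 and 23 under the other filters, scalings and subtractions, and was 6 at 2-fold. No listed gene passed any of the folds in the lower direction under these settings. With the mean in place of the median, the NDC80 complex stood at 0.78 and the checkpoint at 0.74. With the neighbour median subtracted, CENP-E with CENP-F stood at 0.91 and the checkpoint at 0.85. Among the other lists, the median of the CENP-A deposition genes was 0.28 with autosome medians subtracted and 0.25 with neighbour medians, where 1 of 6 in place of 2 of 7 passed 1.5-fold, and their mean was 0.31. The means of the centriole genes and the regulators were 0.52 and 0.22, against medians of 0.37 and 0.05. Under loess 0 in place of 1 regulator was at least 1.5-fold lower, and under both subtractions 0 in place of 1 gene of the anaphase-promoting complex and its outputs. With the mean over clusters, the passenger complex stood at 0.36. Among single listed genes, 20 of 40 moved by over 0.1 when neighbour medians were subtracted and 5 of 40 when autosome medians were, and none of 41 did under loess, median or repeated quantile scaling. MAD1L1, at -0.02, was at 0.03 under loess and 0.01 under repeated quantile scaling. CENPL changed sign under both subtractions, at -0.02 and -0.13. The causes of these changes were not tested. No paired analysis was possible because each group held 1 array.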

Other observations

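Over all 9247 brighter genes with a RefSeq promoter, 1191 held a CHR, the listed genes included. Of these 8.31% were at least 1.5-fold higher in the knockdown array, against 4.26% of the 8056 genes without the motif, and the medians were 0.02 and -0.03. This split was computed after the promoters of the listed genes were seen, and it carries no test.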
